A study of Drosophila melanogaster with 9 samples.

Results

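Odorant receptor genes encode the membrane proteins with which flies smell most volatile compounds. They were taken here as all genes named Or with a number and a letter, plus Orco, which gave 60 of the 17478 genes in the deposited tables. RNA came from whole heads of adult Drosophila melanogaster aged 3 to 5 days, in 3 groups of 3 libraries. The groups were A512P flies, with an alanine-to-proline change in the histone demethylase gene kdm5, JmjC* flies, whose kdm5 allele the labels call enzymatically inactive, and wild-type (WT) flies. The labels give no treatment. The sources used here do not state how the alleles were introduced, the genetic background, the sex of the flies, or whether the libraries are from different pools of animals. The p-values therefore cover only how far these libraries vary, and that variation may be technical.

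Olfactory neurons of the fly sit in sensilla, porous hairs on the antenna and the maxillary palp, and a few neurons share each hair. A neuron makes mostly a single tuning receptor, which sets the odours it answers to, and the co-receptor Orco, which joins the tuning receptor in an ion channel and brings it to the ciliary membrane. Antennal hairs are classed as basiconic, trichoid, intermediate or coeloconic, and larvae use a partly separate set of receptors.

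Each mutant was compared with WT by the authors. For every gene their tables hold a mean normalized count over all 9 libraries, a log2 fold change of mutant over WT with its standard error (SE), and a p-value adjusted over all tested genes. A gene is called when its adjusted p is under 0.05 and counts as tested when an adjusted p is given. Values of single libraries were not used here, so the depth behind each value is unknown. The fold changes are shrunken towards 0, which understates the change of weakly expressed genes. In whole heads, fewer cells of a type and less RNA per cell cannot be told apart. The kdm5 gene, named lid in the authors' deposited tables, stood at log2 -0.081 ± 0.095 in A512P (adjusted p = 0.61) and -0.11 ± 0.095 in JmjC* (adjusted p = 0.431). Both alleles alter the protein, so the level of lid does not check the labels.

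Of the 60 receptor genes, 59 had a mean normalized count above 0, 39 reached at least 10 and 11 reached at least 50. The A512P comparison tested 44 of them and the JmjC* comparison 46, and all 39 genes with a count of at least 10 were tested in both. Just inside that level stood Or83c at 10.4 and just outside it Or94a at 7.61 (mean normalized counts in the authors' deposited tables). At the edge of testing in A512P stood Or74a, tested at 4.10, and Or65c, not tested at 3.66. In JmjC* the last tested receptor was Or19a at 2.94 and the next below it Or98b at 2.87 in the authors' deposited tables. Testing followed the mean over all libraries, so a gene near that edge may have passed through the group in which it was higher.

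The receptor genes were weakly expressed. Their mean normalized counts summed to 3818, which was 0.0109% of the sum over all genes, and Orco alone made up 48.6% of the receptor sum. The median over tested receptors was 22.7, against 655 over all tested genes. Their median SE was 0.222 in A512P and 0.221 in JmjC*, against 0.124 and 0.126 over all genes tested in the authors' deposited tables.

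Per kb of exon, Orco was the highest receptor gene, at a mean normalized count of 956. Or63a followed at 188, Or43b at 184, Or13a at 101 and Or45b at 67.7 per kb. Or63a and Or45b are known mainly from larvae, whereas Or43b and Or13a belong to antennal basiconic neurons. Of the palp receptors Or71a was highest at 36.1 per kb, followed by Or46a at 32.9, Or59c at 25.6, Or42a at 15.2, Or85e at 13.2, Or85d at 3.70 and Or33c at 2.42. The spread of these levels between libraries is not part of the tables, so neighbours in the order were not compared.

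**Figure D1:**
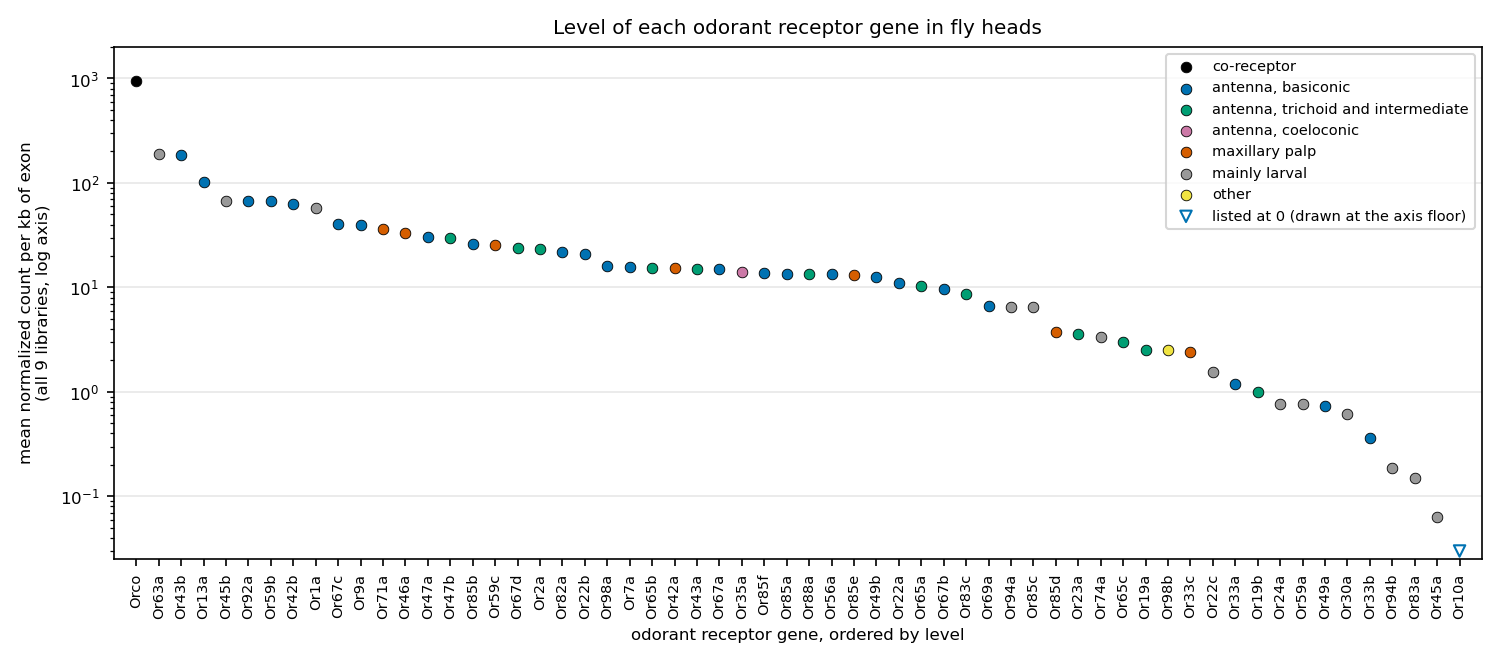
Mean normalized count per kb of exon over all 9 libraries (log axis) for each of the 60 odorant receptor genes, ordered by level and coloured by the organ and hair type that use the receptor. Orco stands alone at 956, the next gene is Or63a at 188, and Or10a, listed at 0, is drawn at the axis floor.

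Some receptor genes share sequence with others. In all, 9 of the 60 share exon bases with another gene. Or10a, an antennal receptor, was listed at 0, and all of its 2819 exon bases are shared with the taste receptor gene Gr10a on the same strand, which was also listed at 0. Or43b shares 575 bases with Cul1 on the opposite strand, a gene with a mean normalized count of 6674, and Or45b shares all of its 1191 bases with the opposite RNA CR45281. Or83a lies wholly within exons of CG1172 on the opposite strand and had a mean normalized count of 0.205. By contrast Or45b, also covered in full, had a mean normalized count of 80.7. The libraries were stranded, but whether the authors counted by strand, and how they assigned reads in shared exons, is unknown here. Levels of these genes are therefore uncertain, and the 0 of Or10a does not show that the gene is silent. Or19a with Or19b and Or22a with Or22b are pairs of paralogs, whose sequences were not compared here.

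In A512P heads, receptors of several adult antennal and palp neurons were lower than in WT, together with Orco. Of 44 tested receptor genes, 14 fell, 2 rose and 28 were not called, and the other 16 had no test. Over all tested genes 10.8% were called lower and 10.2% higher, and among the tested receptors the shares were 31.8% lower and 4.55% higher. The median log2 fold change of the tested receptors was -0.23, against 0.0027 over all 11608 tested genes. Among the 11 receptors with a mean normalized count of at least 50 the median was -0.0093.

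In JmjC* heads more receptor genes were called. Of 46 tested, 19 fell, 3 rose and 24 were not called, and the other 14 had no test. Over all tested genes 14.6% were called lower and 14.2% higher, and among the tested receptors the shares were 41.3% lower and 6.52% higher. The median log2 fold change of the tested receptors was -0.39, against 0.011 over all 11898 tested genes, and it was -0.38 among those with a mean normalized count of at least 50.

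Weakly expressed genes in general were more often called higher than lower. Among all 1941 tested genes with a mean normalized count of 10 to 100, a range set after the values were seen, 4.33% were called lower and 16.1% higher in A512P, with a median log2 fold change of 0.11. In JmjC* these genes gave 6.34% lower and 19.8% higher, with a median of 0.13. The 34 receptor genes in that range gave 32.4% lower in A512P and 44.1% lower in JmjC*, with 2 called higher in A512P and 1 in JmjC*.

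**Figure D2:**
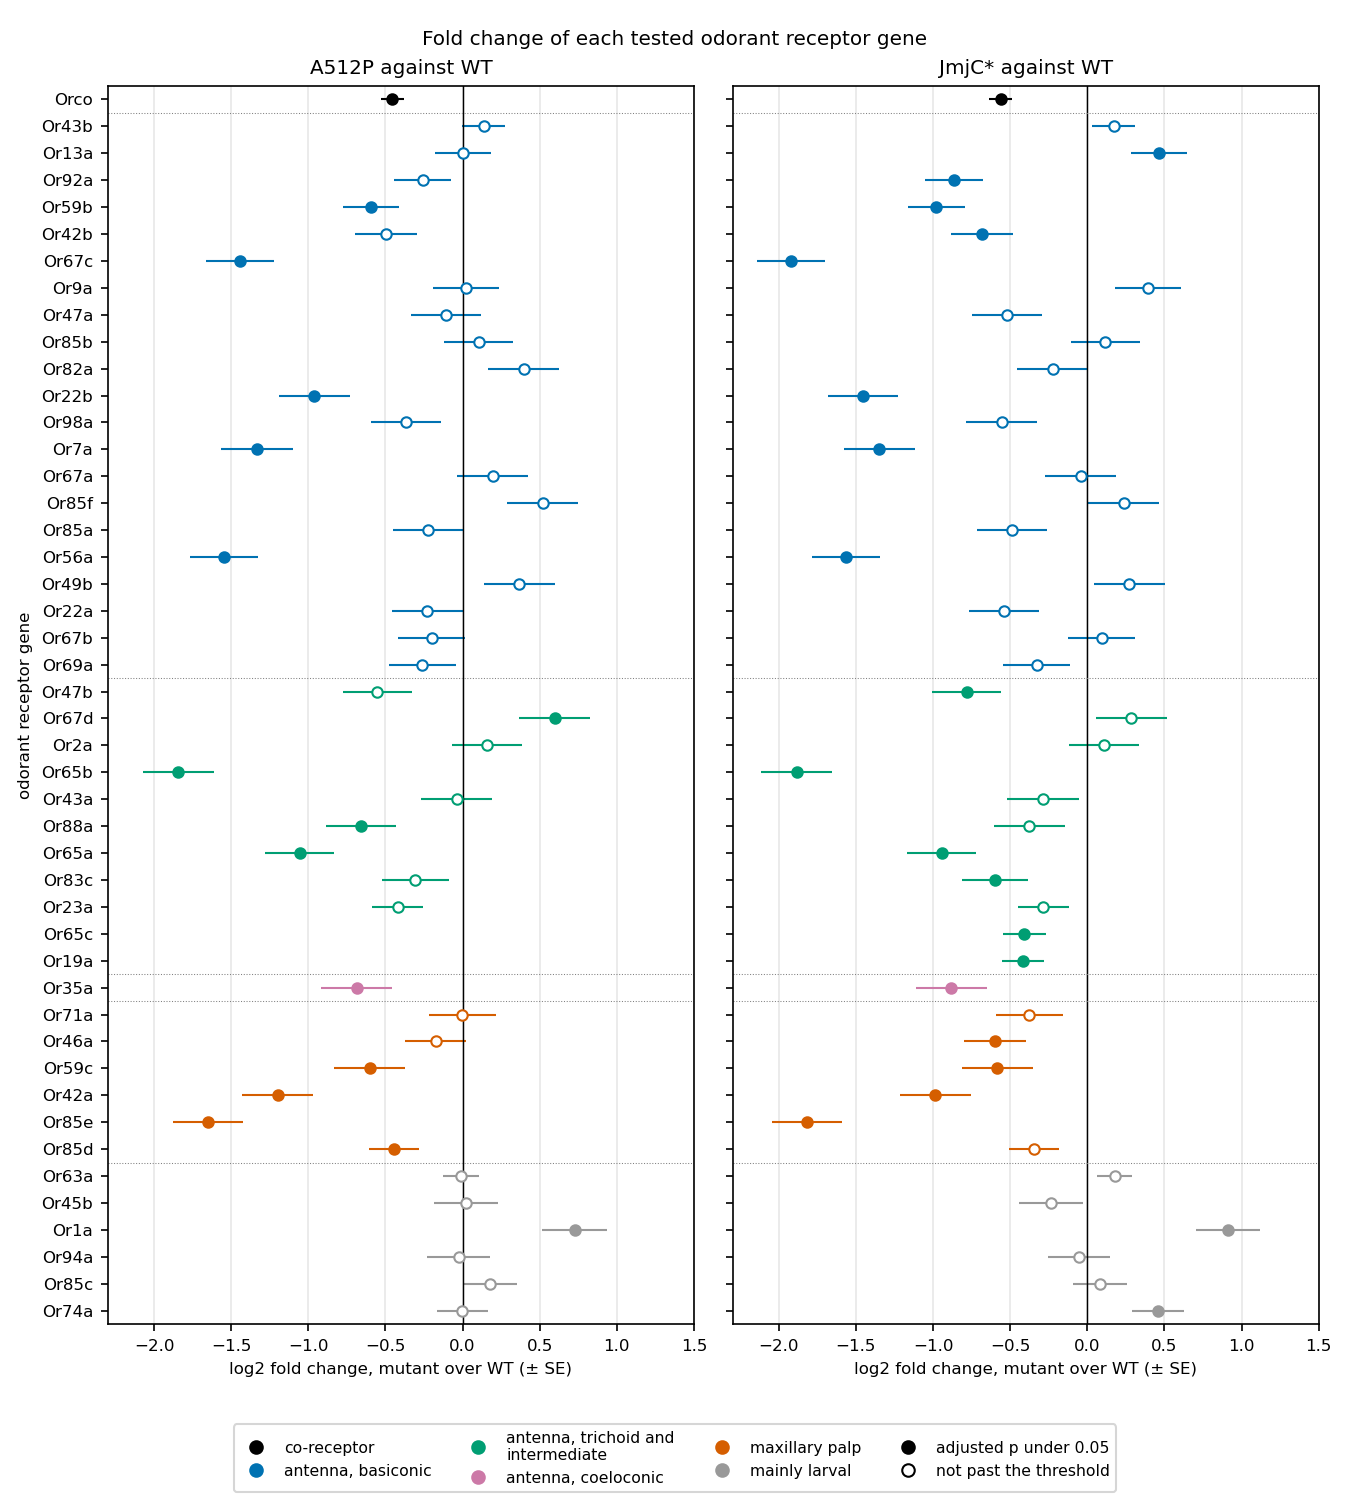
Log2 fold change of mutant over WT with its SE (horizontal bars) for the tested odorant receptor genes, A512P on the left and JmjC* on the right, grouped by organ and hair type. Filled points passed an adjusted p of 0.05. Of the filled points 14 of 16 in A512P and 19 of 22 in JmjC* lie left of 0, and Or1a lies right of 0 in both panels.

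Orco (FBgn0037324; BDGP6.54, chromosome 3R, 5407183 to 5412406, minus strand) was the best measured receptor gene, with a mean normalized count of 1855. In the authors' deposited tables Orco fell by 0.46 ± 0.075 on the log2 scale in A512P (adjusted p = 4.37e-08) and by 0.56 ± 0.075 on the log2 scale in JmjC* (adjusted p = 3.81e-12). Its level was thus 1.37-fold lower in A512P and 1.47-fold lower in JmjC* than in WT.

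Among the 25 antennal basiconic receptors, 21 were tested in each mutant. In A512P 5 fell and 0 rose, with 1 rise at an unadjusted p under 0.05 and a median log2 fold change of -0.23. In JmjC* 7 fell and 1 rose, with a median of -0.49. The largest falls belonged to Or67c, Or56a and Or7a in A512P and to Or67c, Or56a and Or22b in JmjC*.

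Or67c, which answers to ethyl lactate (FBgn0036078; 3L, 10243320 to 10244706, mean normalized count 48.9), stood at log2 -1.44 ± 0.22 in A512P (adjusted p = 2.25e-09) and -1.92 ± 0.22 in JmjC* (adjusted p = 2.77e-16) in the authors' deposited tables. Or56a, the receptor of the mould odour geosmin (FBgn0034473; 2R, 19769461 to 19771233, mean normalized count 16.8), stood at -1.55 ± 0.22 in A512P (adjusted p = 1.96e-10) and -1.57 ± 0.22 in JmjC* (adjusted p = 7.23e-11). Or7a, which answers to green leaf aldehydes (FBgn0030016; X, 8164266 to 8165708, mean normalized count 19.3), stood at -1.33 ± 0.23 in A512P (adjusted p = 2.61e-07) and -1.35 ± 0.23 in JmjC* (adjusted p = 1.11e-07) in the authors' deposited tables. All 3 were more than 2-fold lower in both mutants, at 2.72-fold, 2.93-fold and 2.52-fold in A512P and 3.79-fold, 2.96-fold and 2.55-fold in JmjC*.

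The other basiconic falls were Or22b and Or59b in both mutants and Or42b and Or92a in JmjC*. Or22b (FBgn0026397, 2L, 1522697 to 1524257, mean normalized count 26.9) fell by 0.96 ± 0.23 on the log2 scale in A512P (adjusted p = 4.20e-04). In JmjC* it fell by 1.45 ± 0.23 on the log2 scale (adjusted p = 7.76e-09) in the authors' deposited tables. Its neighbouring paralog Or22a was at -0.23 ± 0.23 in A512P (adjusted p = 0.538) and -0.54 ± 0.23 in JmjC* (adjusted p = 0.0584), neither past the threshold. Or59b, a receptor of acetate esters, was at -0.60 ± 0.18 in A512P (adjusted p = 0.00807) and -0.98 ± 0.18 in JmjC* (adjusted p = 1.77e-06) in the authors' deposited tables and so was called in both. Or42b, tuned to fruit esters, was called in JmjC* and not in A512P, at -0.68 ± 0.20 in JmjC* (adjusted p = 0.0039) beside -0.50 ± 0.20 in A512P (adjusted p = 0.059). The diacetyl receptor Or92a was likewise called in JmjC* and not in A512P, at -0.86 ± 0.19 in JmjC* (adjusted p = 5.56e-05) beside -0.26 ± 0.19 in A512P (adjusted p = 0.357).

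Or13a, the receptor of mushroom alcohol, was the basiconic receptor that rose, at 0.46 ± 0.18 in JmjC* (adjusted p = 0.037) beside 0.0051 ± 0.18 in A512P (adjusted p = 0.991) in the authors' deposited tables. The tested basiconic receptors called in neither mutant ranged from log2 -0.37 (Or98a) to 0.52 (Or85f) in A512P and from -0.56 (Or98a) to 0.40 (Or9a) in JmjC*. They included Or43b, listed per kb of exon as the highest tuning receptor of the adult antenna. Or43b stood at 0.14 ± 0.14 in A512P (adjusted p = 0.547) and 0.17 ± 0.14 in JmjC* (adjusted p = 0.381). Because it shares exon bases with Cul1 on the opposite strand, its level and fold changes are uncertain. Untested were Or10a, Or33a, Or33b and Or49a.

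Trichoid and intermediate hairs house receptors for pheromones and fly odours. Of 12 such receptors, 9 were tested in A512P, where 3 fell and 1 rose (median log2 fold change -0.42). In JmjC* 11 were tested, where 6 fell and 0 rose, also at an unadjusted p under 0.05 (median -0.41). The Or65 genes lie in a row on 3L, on the plus strand, and are used together in the same neuron. Or65b (FBgn0041624; 3L, 6325612 to 6327049, mean normalized count 18.9) stood at -1.84 ± 0.23 in A512P (adjusted p = 7.99e-14) and -1.88 ± 0.23 in JmjC* (adjusted p = 1.52e-14) in the authors' deposited tables, which was 3.59-fold lower in A512P and 3.69-fold lower in JmjC*. Or65a (3L, 6320611 to 6322098) was at -1.06 ± 0.22 in A512P (adjusted p = 4.42e-05) and -0.94 ± 0.22 in JmjC* (adjusted p = 2.32e-04). Or65c was called at -0.41 ± 0.14 in JmjC* (adjusted p = 0.0158), and in A512P it had -0.44 ± 0.14 with no adjusted p, at a mean normalized count of 3.66.

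The other trichoid and intermediate receptors gave mixed values. Or88a, a receptor of fly odours, was called in A512P and not in JmjC*, at -0.66 ± 0.23 in A512P (adjusted p = 0.024) and -0.38 ± 0.23 in JmjC* (adjusted p = 0.222) in the authors' deposited tables. Or47b, which promotes courtship in males, was called at -0.78 ± 0.22 in JmjC* (adjusted p = 0.00311) and stood at -0.55 ± 0.22 in A512P (adjusted p = 0.0598). Or67d, the receptor of the male pheromone cis-vaccenyl acetate, rose by 0.60 ± 0.23 on the log2 scale in A512P (adjusted p = 0.0474) and stood at 0.29 ± 0.23 in JmjC* (adjusted p = 0.38).

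Or83c, a farnesol receptor, was called at -0.60 ± 0.21 in JmjC* (adjusted p = 0.0211) and stood at -0.31 ± 0.22 in A512P (adjusted p = 0.344) in the authors' deposited tables. Or19a, a citrus terpene receptor, was called at -0.42 ± 0.14 in JmjC* (adjusted p = 0.0117), at a mean normalized count of only 2.94, and had -0.38 ± 0.14 with no adjusted p in A512P. Or2a, Or43a and Or23a were tested and not called in either mutant, and Or19b was not tested. The single coeloconic receptor, Or35a, fell by 0.69 ± 0.23 on the log2 scale in A512P (adjusted p = 0.0185) and by 0.88 ± 0.23 on the log2 scale in JmjC* (adjusted p = 9.93e-04) in the authors' deposited tables.

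All 6 tested maxillary palp receptors had negative log2 fold changes in both mutants, and 4 of them were called lower in each, with 0 rises also at an unadjusted p under 0.05. The medians were -0.52 in A512P and -0.59 in JmjC*. Or85e, which shares its neuron with Or33c (FBgn0026399; 3R, 8634320 to 8635878, mean normalized count 18.5), was 3.13-fold lower in A512P and 3.52-fold lower in JmjC*. On the log2 scale that was -1.65 ± 0.23 in A512P (adjusted p = 2.76e-11) and -1.82 ± 0.23 in JmjC* (adjusted p = 7.48e-14) in the authors' deposited tables. Or42a, an ester receptor (FBgn0033041; 2R, 5791441 to 5792967, mean normalized count 19.4), stood at -1.20 ± 0.23 in A512P (adjusted p = 5.24e-06) and -0.98 ± 0.23 in JmjC* (adjusted p = 1.93e-04). Or59c was called in both, at -0.60 ± 0.23 in A512P (adjusted p = 0.0448) and -0.58 ± 0.23 in JmjC* (adjusted p = 0.0412) in the authors' deposited tables.

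The remaining palp receptors were called in at most 1 mutant. Or85d was called at -0.45 ± 0.16 in A512P (adjusted p = 0.0298) and stood at -0.34 ± 0.16 in JmjC* (adjusted p = 0.0951), at a mean normalized count of 4.59 in the authors' deposited tables. Or46a, which answers to cresol, was called at -0.60 ± 0.20 in JmjC* (adjusted p = 0.0132) and stood at -0.17 ± 0.20 in A512P (adjusted p = 0.6). All 2450 exon bases of Or46a are shared with the opposite RNA CR43467, whose mean normalized count was 4.99. Or71a, an ethylphenol receptor, was called in neither, at -0.0036 ± 0.22 in A512P (adjusted p = 0.995) and -0.38 ± 0.22 in JmjC* (adjusted p = 0.194) in the authors' deposited tables. Or33c had -0.37 ± 0.13 in A512P and -0.37 ± 0.13 in JmjC* at a mean normalized count of 2.79, with a score but no p-value.

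None of the receptors known mainly from larvae was called lower. Of 13 genes 6 were tested, and 0 of them had a negative value at an unadjusted p under 0.05 in either mutant by the authors' DESeq2 test. With 10.8% of all tested genes called lower in A512P and 14.6% in JmjC*, a count of 0 among 6 is near the background. Or1a (FBgn0029521; X, 315123 to 316566, mean normalized count 67.7) rose by 0.73 ± 0.21 on the log2 scale in A512P (adjusted p = 0.00498) and by 0.91 ± 0.21 on the log2 scale in JmjC* (adjusted p = 1.46e-04) in the authors' deposited tables. The gene lies inside CG3777 on the same strand, with no exon bases shared, and CG3777 also rose, at 1.63 ± 0.17 in A512P (adjusted p = 2.10e-18) and 1.39 ± 0.18 in JmjC* (adjusted p = 1.71e-13). The part of CG3777 transcripts in the Or1a value was not tested. Or74a was called higher at 0.46 ± 0.17 in JmjC* (adjusted p = 0.0256) and stood at -0.0032 ± 0.17 in A512P (adjusted p = 0.994), at a mean normalized count of 4.10 in the authors' deposited tables. Or63a, the highest of the larval set, stood at -0.0093 ± 0.12 in A512P (adjusted p = 0.972) and 0.18 ± 0.12 in JmjC* (adjusted p = 0.257). Or45b, which shares its exons with CR45281, stood at 0.021 ± 0.21 in A512P (adjusted p = 0.964) and -0.23 ± 0.21 in JmjC* (adjusted p = 0.427). Or98b, assigned to no hair type here, was not tested.

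Receptors of neurons that share a hair can be set side by side. Of the 60 genes, 39 were placed in 16 adult sensilla from textbook knowledge, after the values had been seen, so what follows is a description with no test between receptors. At least 1 receptor was called lower in 9 of the 16 sensilla in A512P and in 10 in JmjC*. Over all tested genes 10.8% were called lower in A512P and 14.6% in JmjC*. A hair with several tested receptors has more room for such a call, and the number of hairs given by these shares was not worked out. In the antennal hair named ab4, both tested receptors, Or7a and Or56a, fell in both mutants, with log2 values between -1.33 and -1.57. In ab7, Or67c had -1.44 in A512P and -1.92 in JmjC*, while its neighbour Or98a had -0.37 in A512P and -0.56 in JmjC*. In ab3, Or22b had -0.96 in A512P and -1.45 in JmjC*, beside 0.10 in A512P and 0.12 in JmjC* for Or85b, the receptor of the other neuron. Or22a, placed in the same neuron as Or22b, had -0.23 in A512P and -0.54 in JmjC* and was called in neither.

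The trichoid hair at4 and the palp hairs pb1 and pb2 showed unequal values too. In at4, Or65b had -1.84 in A512P and -1.88 in JmjC*, beside -0.55 and -0.78 for Or47b and -0.66 and -0.38 for Or88a, each in that order of mutants. Or65a, placed in the same neuron as Or65b, had -1.06 in A512P and -0.94 in JmjC*. In the palp hair pb1, Or42a had -1.20 in A512P and -0.98 in JmjC*, and Or71a had -0.0036 in A512P and -0.38 in JmjC*. In pb2, Or85e had -1.65 in A512P and -1.82 in JmjC*, and Or46a had -0.17 in A512P and -0.60 in JmjC*. The values were more alike in the palp hair pb3, where both receptors were called lower in A512P. There Or59c had -0.60 in A512P and -0.58 in JmjC*, and Or85d had -0.45 in A512P and -0.34 in JmjC*. No receptor of the hairs ab5, ab8, ab9 or ab10 was called in either mutant in the authors' deposited tables.

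**Figure D3:**
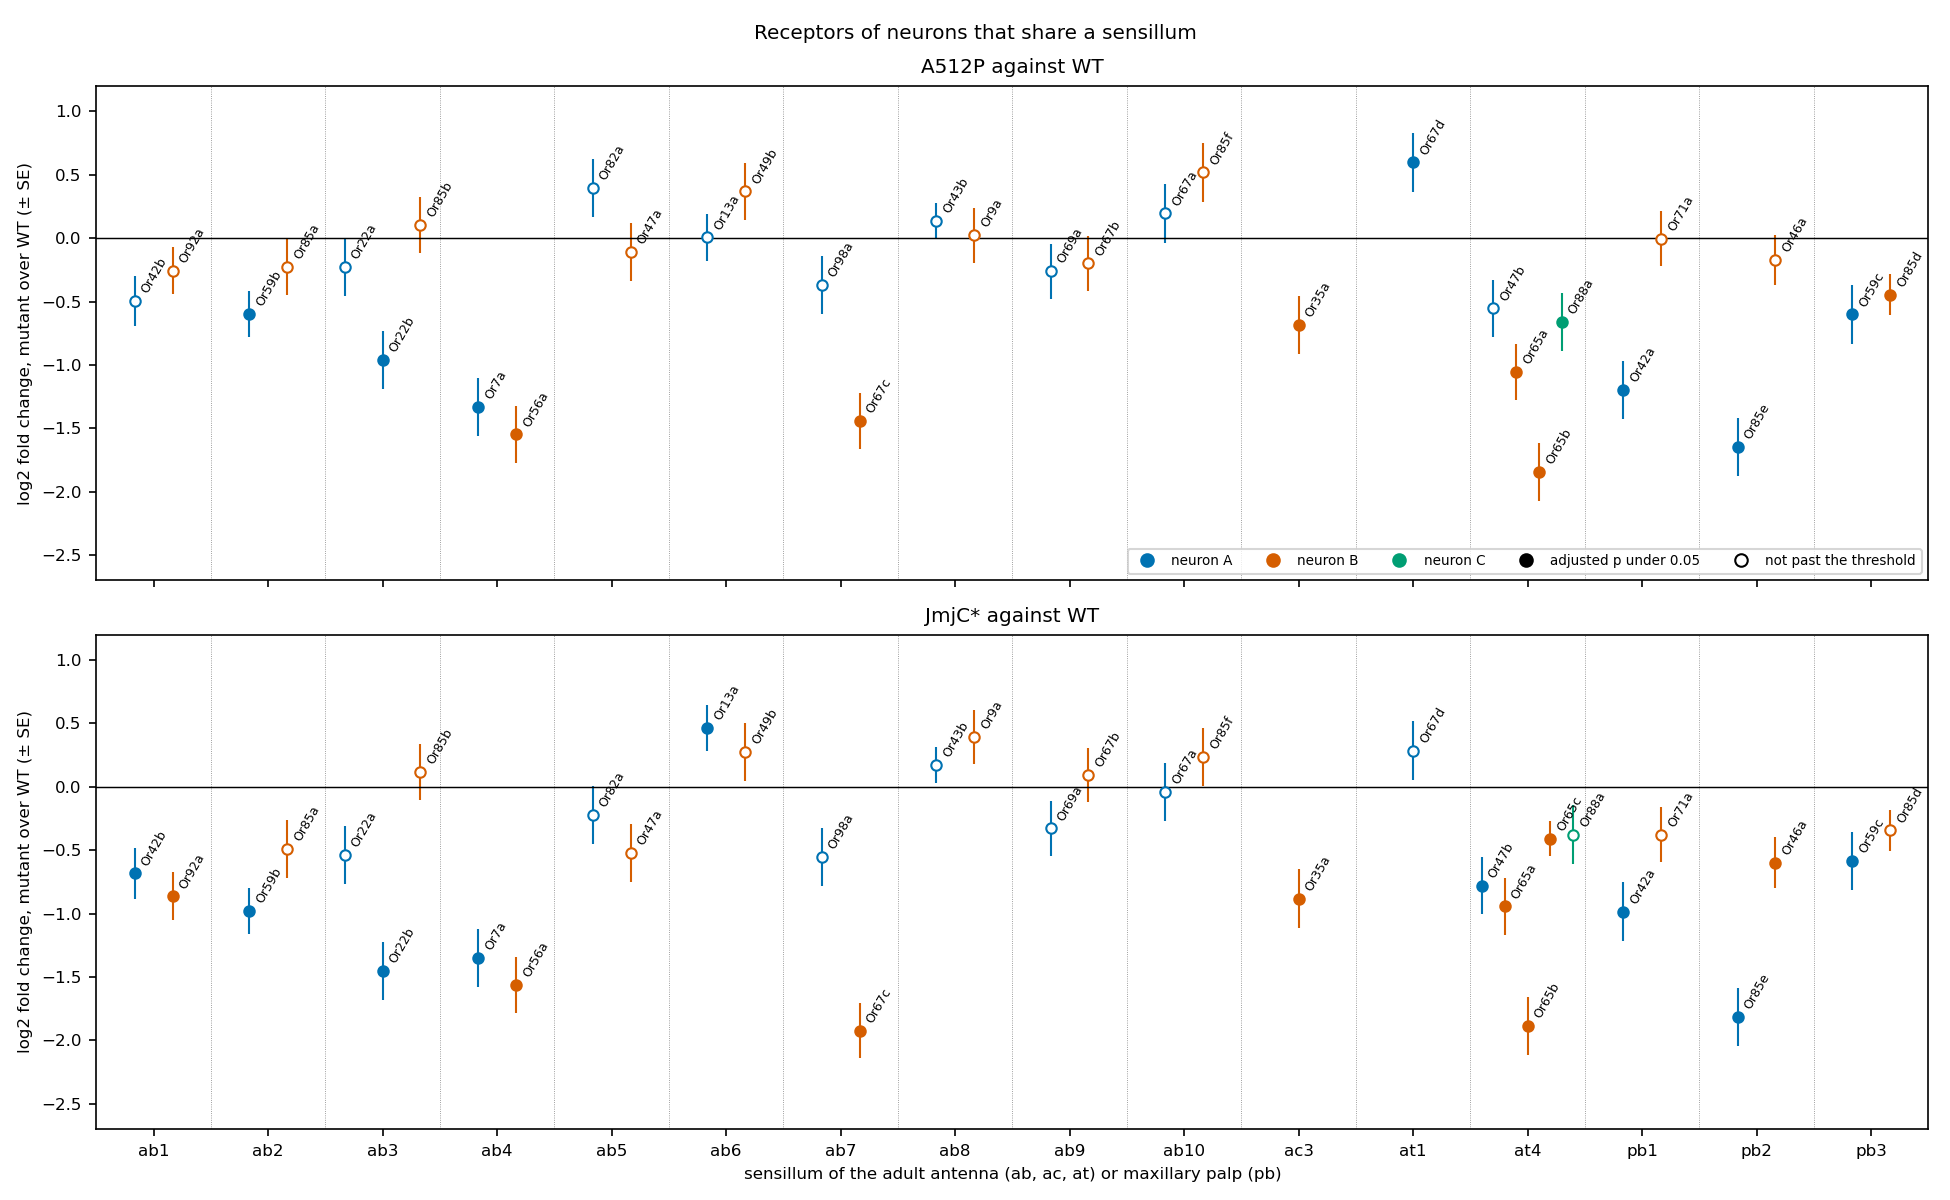
Log2 fold change of mutant over WT with its SE (vertical bars) for tested receptors, arranged by the adult hair that houses their neurons, A512P above and JmjC* below, with the neuron shown by colour. Filled points passed an adjusted p of 0.05. In ab4 both tested receptors lie at -1.33 or lower, while in ab7, pb1 and pb2 a receptor lies below its neighbour.

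Both comparisons use the same WT libraries. Since a shared WT makes calls coincide, nothing is read from the overlap of the 2 lists of calls. The difference between the mutants, A512P minus JmjC*, was tested for 44 receptor genes by a normal test, with the SE taken as the root of the summed squared SEs and adjustment over 11608 genes. By this test 0 receptor genes passed, 2 had an unadjusted p under 0.05, and 0.879% of all genes passed.

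The receptor gene with the smallest adjusted p was Or92a, with a difference of 0.61 ± 0.26 (95% interval 0.087 to 1.13, adjusted p = 0.673). The shared WT makes this SE an upper bound, and with an SE for estimates correlated at 0.5 Or92a passed as the 1 receptor that did (adjusted p = 0.0369). With that SE 429 of all 11608 genes passed, against 102 before, so passing was not particular to receptor genes. For Orco the difference was 0.10 ± 0.11 (95% interval -0.10 to 0.31). For Or65b it was 0.040 ± 0.32 (95% interval -0.59 to 0.67), so differences of moderate size were not detectable at such an SE.

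Receptor genes lie on all the large chromosome arms, with 8 on X, 10 on 2L, 15 on 2R, 11 on 3L and 16 on 3R. Each of these arms held falls in both mutants. In A512P the falls numbered 1 of 5 tested on X, 2 of 4 on 2L, 4 of 12 on 2R, 3 of 10 on 3L and 4 of 13 on 3R. In JmjC* they numbered 2 of 6 on X, 2 of 4 on 2L, 7 of 12 on 2R, 4 of 11 on 3L and 4 of 13 on 3R. Over all tested genes 10.8% were called lower in A512P and 14.6% in JmjC*. The X receptors had median log2 fold changes of 0.023 in A512P and 0.25 in JmjC*, where those of the other arms had negative medians in both. These X medians rest on 5 tested genes in A512P and 6 in JmjC*. Among them Or7a fell in both mutants, and Or1a, which lies inside CG3777, rose in both. No median over all X genes was taken, and a difference between arms was not tested.

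Within 5000 bases of the 21 receptor genes called lower in either mutant lay 25 tested genes that are not odorant receptors. Of these, 7 were called lower and 0 higher in A512P, where 10.8% of all tested genes were called lower and 10.2% higher. In JmjC* 9 were called lower and 3 higher, where the shares over all tested genes were 14.6% and 14.2%. They included CR44541, a non-coding gene 78 bases from Or67c on the same strand, at log2 -0.75 ± 0.23 in A512P (adjusted p = 0.00722) and -0.83 ± 0.23 in JmjC* (adjusted p = 0.00187) in the authors' deposited tables. CG43795, which spans Or59b and Or59c on the opposite strand with no shared exon bases, was at -0.49 ± 0.087 in A512P (adjusted p = 8.57e-07) and -0.43 ± 0.087 in JmjC* (adjusted p = 1.38e-05). CG12917, which shares 4 exon bases with Or46a on the same strand, was at -0.66 ± 0.23 in A512P (adjusted p = 0.0237) and -0.72 ± 0.23 in JmjC* (adjusted p = 0.00786) in the authors' deposited tables. Around Or7a no tested gene within that distance was called in either mutant, and around Or56a and Or35a none was tested. The part of neighbouring transcripts in the receptor values was not tested.

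Other antennal genes were read beside the receptors, from lists of their roles. Of 15 genes of antennal support cells and pheromone detection, 3 fell and 0 rose in A512P (median log2 fold change -0.15), and 9 fell and 0 rose in JmjC* (median -0.36), with 0 rises also at an unadjusted p under 0.05. The shares called lower were 20% in A512P, against 10.8% of all tested genes, and 60% in JmjC*, against 14.6%. In A512P the falls were a5, an antennal protein, at -1.57 ± 0.12 in A512P (adjusted p = 1.67e-34), the odorant-binding protein Obp83a at -0.41 ± 0.12 in A512P (adjusted p = 0.00691) and Obp69a at -0.31 ± 0.12 in A512P (adjusted p = 0.0417) in the authors' deposited tables. In JmjC* a5 stood at -1.94 ± 0.12 in JmjC* (adjusted p = 5.06e-52), the pheromone-binding protein lush at -0.91 ± 0.13 in JmjC* (adjusted p = 3.24e-11), Obp83a at -0.79 ± 0.12 in JmjC* (adjusted p = 6.94e-09) and Obp69a at -0.55 ± 0.12 in JmjC* (adjusted p = 3.37e-05). Snmp1, a membrane protein of pheromone-sensing neurons with a mean normalized count of 1484, was called in neither, at -0.15 ± 0.12 in A512P (adjusted p = 0.457) and -0.11 ± 0.12 in JmjC* (adjusted p = 0.552) in the authors' deposited tables.

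Ionotropic and carbon dioxide receptors are used by other antennal neurons. Of 18 tested in A512P 4 fell and 3 rose (median -0.058), and of 19 in JmjC* 5 fell and 3 rose (median -0.14). The shares called were 22.2% lower and 16.7% higher in A512P, against 10.8% and 10.2% of all tested genes. In JmjC* they were 26.3% lower and 15.8% higher, against 14.6% and 14.2%, so the share of rises there is near the background. Among all tested genes with a mean normalized count of 10 to 100, 4.33% were lower and 16.1% higher in A512P. In JmjC* 6.34% of those were lower and 19.8% higher. The share of rises among these receptors in A512P is near that of this range as well. Ir75a, an acid receptor, was at -1.09 ± 0.20 in A512P (adjusted p = 1.31e-06) and -1.84 ± 0.20 in JmjC* (adjusted p = 1.63e-17), and Ir75b at -1.17 ± 0.23 in A512P (adjusted p = 7.53e-06) and -1.86 ± 0.23 in JmjC* (adjusted p = 4.79e-14) in the authors' deposited tables. Of the co-receptors Ir25a and Ir76b fell in both mutants, while Ir8a stood at 0.32 ± 0.18 in A512P (adjusted p = 0.227) and 0.21 ± 0.18 in JmjC* (adjusted p = 0.427) and Ir93a at 0.077 ± 0.23 in A512P (adjusted p = 0.867) and 0.49 ± 0.23 in JmjC* (adjusted p = 0.1). Ir31a and the cooling receptor Ir21a rose in both mutants. Ir31a was at 0.99 ± 0.18 in A512P (adjusted p = 1.13e-06) and 0.68 ± 0.18 in JmjC* (adjusted p = 0.00119), and Ir21a at 0.71 ± 0.19 in A512P (adjusted p = 0.00231) and 0.996 ± 0.19 in JmjC* (adjusted p = 2.99e-06) in the authors' deposited tables.

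Genes of cilia and of neurons in general were read as well. Of 17 ciliary transport genes 0 were called in A512P by the authors' DESeq2 test (2 had an unadjusted p under 0.05), and 1 fell and 1 rose in JmjC*, with median log2 fold changes of -0.12 in A512P and -0.15 in JmjC*. Of 10 pan-neuronal genes 4 fell in A512P and 5 in JmjC*, with 0 rises also at an unadjusted p under 0.05, and the medians were -0.16 in A512P and -0.23 in JmjC*. The shares of pan-neuronal genes called lower were 40% in A512P and 50% in JmjC*. For ciliary transport genes they were 0% and 5.88%, and for all tested genes 10.8% and 14.6%, in the same order. Among the pan-neuronal genes are the 2 named next. Of these Rab3, a synaptic vesicle GTPase, was at -0.36 ± 0.077 in A512P (adjusted p = 6.09e-05) and -0.51 ± 0.077 in JmjC* (adjusted p = 9.19e-10), and elav, a marker of all neurons, at 0.03 ± 0.12 in A512P (adjusted p = 0.904) and -0.033 ± 0.12 in JmjC* (adjusted p = 0.871) in the authors' deposited tables. The part of these antennal and neuronal changes in the receptor values was not tested.

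Transcription factors and chromatin regulators known from the patterning of the olfactory organs or from receptor choice were tested in 24 cases. Of these 6 fell and 1 rose in A512P (median -0.19), and 7 fell and 2 rose in JmjC* (median -0.14). The shares were 25% lower and 4.17% higher in A512P, against 10.8% and 10.2% of all tested genes. In JmjC* they were 29.2% lower and 8.33% higher, against 14.6% and 14.2%. The POU factor acj6, which is needed for receptor choice in palp and antenna, was at -0.40 ± 0.094 in A512P (adjusted p = 3.43e-04) and -0.34 ± 0.094 in JmjC* (adjusted p = 0.00227), and pdm3, a POU factor of the same process, at -0.35 ± 0.085 in A512P (adjusted p = 4.59e-04) and -0.32 ± 0.085 in JmjC* (adjusted p = 0.00123) in the authors' deposited tables. The patterning gene dac was at -0.45 ± 0.078 in A512P (adjusted p = 3.64e-07) and -0.40 ± 0.078 in JmjC* (adjusted p = 4.86e-06), and bab2 at -0.38 ± 0.096 in A512P (adjusted p = 8.25e-04) and -0.38 ± 0.096 in JmjC* (adjusted p = 6.83e-04). Xbp1 was called higher in both, at 0.20 ± 0.073 in A512P (adjusted p = 0.0363) and 0.22 ± 0.073 in JmjC* (adjusted p = 0.0123) in the authors' deposited tables. Many of these genes are also used in head cells other than olfactory neurons.

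**Figure D4:**
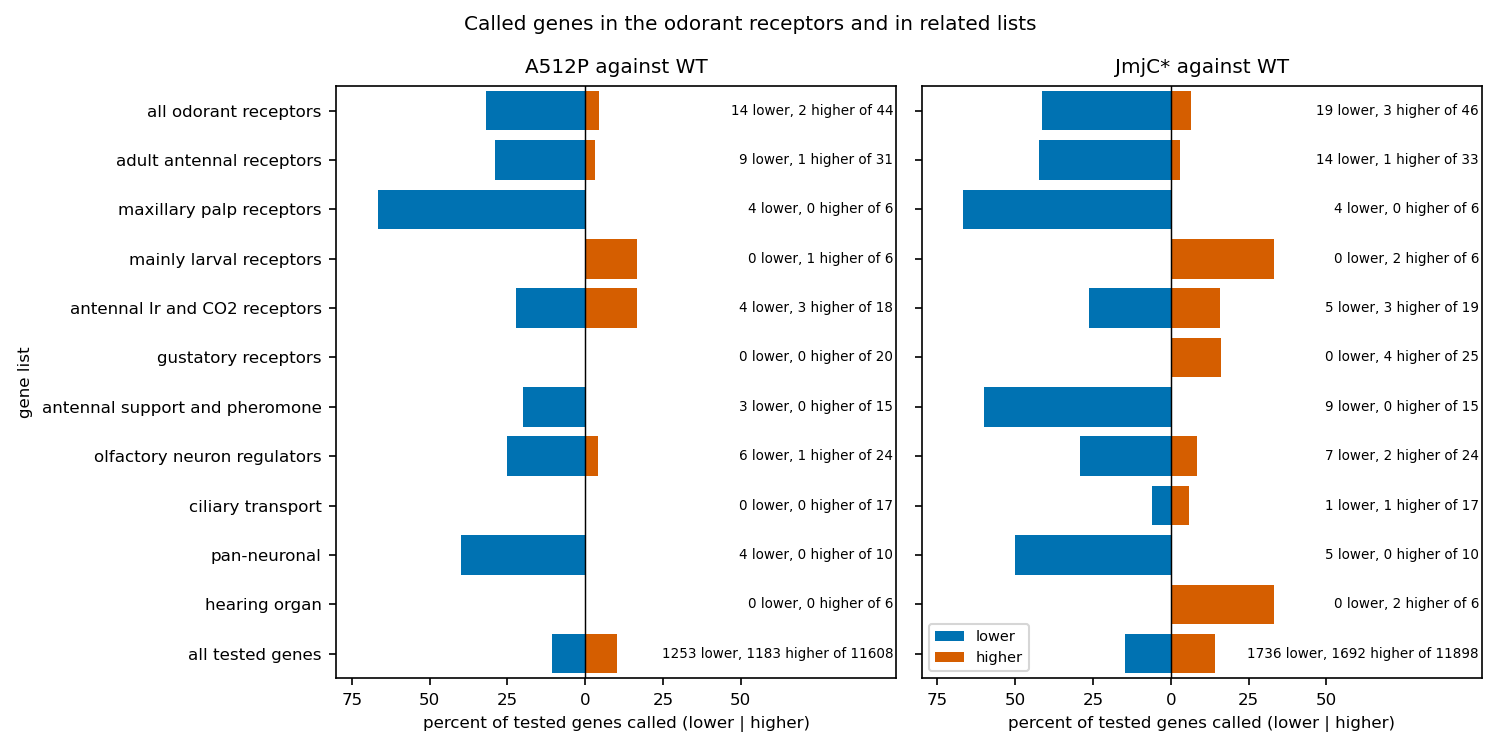
Percent of tested genes called lower (left of 0) and higher (right of 0) in A512P and in JmjC* for the odorant receptors, their subsets, related lists and all tested genes. The palp receptors reach 66.7% lower in both mutants on only 6 tested genes, against 10.8% of all tested genes in A512P and 14.6% in JmjC*.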

How the data were processed

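Messenger RNA of whole heads was sequenced in 9 libraries, 3 per genotype, with a stranded kit and paired reads, per the labels' protocols. The submitters' processing notes list STAR and DESeq2 without versions and the sources used here give no genome build. The deposited signal is a mean normalized count (baseMean, per the file headers), the same in both comparisons for each of the 17478 genes. No depth per library follows from it. The authors' log2 fold changes and SEs were used as deposited, as were their score (a Wald statistic, equal to fold change over SE within 1.21e-13), p-values and adjusted p-values. No SE exceeded 0.231, and the median SE was 0.0911 below a mean normalized count of 10, as shrunken estimates give. Dividing by the deposited exon length gave counts per kb.

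Values were read with Python 3.11.15, pandas 2.3.3 and SciPy 1.17.1, and no count model was refitted. The difference between mutants used a normal test, two-sided, adjusted by Benjamini-Hochberg and tested on simulated data. The simulated fold changes of the mutants were drawn independently, so that trial does not cover the shared WT or the shrinkage of the real values. Positions are from Ensembl release 115 (BDGP6.54), where all 60 receptor genes had the identifier, chromosome and exon length of the tables.

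Named with values were every receptor gene called in either mutant, Orco, the 5 highest per kb, the palp receptors and the genes at the edge of each level, and up to 4 called genes of each other list. Further genes were named after their values were seen. Members and lists were chosen with earlier results of these data known. The names Zf30C, Oseg3, osm-6 and Tg737 were not matched. A planned promoter motif count was not run, since promoter sequence was not used here. Alternatives were other thresholds, adjustments, filters, averages and centring.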

Additional observations from a re-analysis of the deposited data

How the results depend on the processing

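The number of receptor genes called lower stayed within 1.5 times its reported value under thresholds of 0.01 and 0.1 and under both other adjustments, at 10 to 17 in A512P and 14 to 24 in JmjC*. Those called higher at an adjusted p under 0.01 numbered 1 in A512P and 1 in JmjC*, and with adjustment over every gene with a p-value 1 in A512P. That adjustment ended the calls of Or59c in A512P (adjusted p = 0.058) and JmjC* (adjusted p = 0.0521) and of Or67d in A512P (adjusted p = 0.0614). Of the 38 calls, 12 had an adjusted p between 0.01 and 0.05. The median over tested receptor genes ranged from -0.26 to -0.0093 in A512P under 4 alternatives. The value near 0 was that of genes with a mean normalized count of at least 50. Those genes include the mainly larval Or63a at -0.0093, Or45b at 0.021 and Or1a at 0.73 in A512P, and also Orco at -0.46. The others stood at -0.60 (Or59b), -0.50 (Or42b), -0.26 (Or92a), -0.17 (Or46a), -0.0036 (Or71a), 0.0051 (Or13a) and 0.14 (Or43b) in A512P. The parts of level and receptor class in that value were not tested. In JmjC* the median over tested receptor genes ranged from -0.39 to -0.29. A mean weighted by the inverse squared SE gave -0.31 in A512P and -0.39 in JmjC*. With a minimum mean normalized count of 20, 24 receptor genes were measurable. The difference between mutants was called for 1 receptor gene, Or92a, with an SE for a correlation of 0.5, under which 429 of all genes were called. No paired analysis was possible because the tables hold no values per library, and leaving out replicates was not run for the same reason. The median SE of 0.222 limits what can be detected at most receptors.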

Other observations

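Of 60 gustatory receptor genes, 20 were tested in A512P, with 0 called by the authors' DESeq2 test (4 at an unadjusted p under 0.05, 2 of them lower and 2 higher). In JmjC* 25 were tested, with 4 called higher and 0 lower (2 lower at an unadjusted p under 0.05). The share called higher, 16%, is near the 14.2% of all tested genes and the 19.8% of those with a mean normalized count of 10 to 100. The called genes were Gr32a, a bitter and pheromone receptor, at 0.87 ± 0.21 in JmjC* (adjusted p = 2.75e-04), and the sugar receptors Gr64f at 0.80 ± 0.23 in JmjC* (adjusted p = 0.00251), Gr64a at 0.56 ± 0.19 in JmjC* (adjusted p = 0.0118) and Gr61a at 0.54 ± 0.20 in JmjC* (adjusted p = 0.0282). In the authors' deposited tables these stood at 0.38 ± 0.21, 0.14 ± 0.23, 0.03 ± 0.19 and 0.43 ± 0.20 in A512P, in the same order.

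Genes of the hearing organ, which lies in the antenna beside the olfactory segment, had positive log2 fold changes in both mutants. Of 6 genes 0 were called in A512P by the authors' DESeq2 test (1 at an unadjusted p under 0.05), and tilB at 0.77 ± 0.23 in JmjC* (adjusted p = 0.00394) and nompA at 0.63 ± 0.20 in JmjC* (adjusted p = 0.00861) rose in JmjC*. The medians were 0.22 in A512P and 0.26 in JmjC*. The share called higher in JmjC* was 33.3% on only 6 genes, against 14.2% of all tested genes. All tested genes with a mean normalized count of 10 to 100 had positive medians too, 0.11 in A512P and 0.13 in JmjC*, with 19.8% called higher in JmjC*. Of the hearing genes, nan and tilB lie in that range, at 48.1 and 47.4, and unc lies below it at 5.79.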
